A study of Drosophila melanogaster with 24 samples.

Results

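The drug RU486 was associated with a like difference on both diets for 73 of 16637 transcripts measured in whole female flies of Drosophila melanogaster. Of these, 22 were higher in flies given the drug on either diet and are called risers here, and 51 were lower on either diet and are called fallers. The members were chosen by their measured RU486 differences. The level of a transcript on an array was the mean log2 brightness of its probes, and the level of a group was the median of its 6 arrays. A transcript was taken when its mean over the 24 arrays was above 7.6 and when its RU486 difference had the same sign on both diets and a size of at least 0.3 log2 on each. The mean level was above 7.6 for 13451 transcripts.

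Each array held labelled cDNA from the RNA of 1 pool of about 35 females aged 13 days. There were 4 groups of 6 pools, namely DR with RU486, DR without RU486, AL with RU486 and AL without RU486. Below, "DR pools" and "AL pools" without further words are those that had no drug. DR is dietary restriction, given for 10 days per the labels, and AL is the name of the other diet, which the labels do not spell out. All groups had the genotype +/+; Act5c-GS-Gal4/+; P{GD3482}v8105 /+, so the pools without the drug carried the same transgenes, although the design text calls AL without RU486 the wild type. From general knowledge and not from the labels, the insertion P{GD3482}v8105 targets ACC, acetyl-CoA carboxylase. It was 1 insertion line, and the driver takes the promoter of an actin gene that is active in most cells.

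GeneSwitch is a form of the yeast activator Gal4 that works only when bound by RU486, a steroid drug also known as mifepristone. Flies with a GeneSwitch driver and an RNAi insertion therefore make the interfering RNA only when they eat the drug, and flies of the same genotype without the drug serve as their control. Acetyl-CoA carboxylase makes malonyl-CoA, the building block of fatty acid synthesis, and flies under dietary restriction live longer and alter their use of stored fat. No group received the drug without carrying the insertion, so the effects of the drug itself and of the switched-on RNAi cannot be told apart. The RNA came from whole flies, in which fewer cells of a type and less RNA per cell cannot be told apart.

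The identifiers are FlyBase transcript numbers, and none of the 73 could be paired with a gene: 0 of 73 had an entry in the RefSeq gene table used here. The transcripts are therefore described by identifier, with no role, and markers of fly tissues could not be looked up. All 73 had 8 probes each. Array medians over transcripts lay between 9.52 and 9.74. Background was set per array from 4091 random probes and lay between 7.35 and 7.68, on average at 7.49 in DR with RU486, 7.37 in DR, 7.58 in AL with RU486 and 7.57 in AL. A pair of arrays stood apart. Pool 1 of AL with RU486 deviated from its group mean with an SD over transcripts of 0.365, against 0.110 to 0.140 in the other pools of that group. Pool 3 of DR with RU486 had an SD of 0.228, against 0.119 to 0.159.

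A difference of at least 0.3 log2 was more frequent on DR, where 1355 transcripts above the level of 7.6 had one, than on AL, where 317 had one. Of the transcripts that reached it on both diets, 73 went the same way and 26 went opposite ways, 19 of them lower with RU486 on DR and higher on AL. Among the risers the median RU486 difference was 0.48 on DR, with a range of 0.31 to 2.04, and 0.51 on AL, with a range of 0.31 to 1.28. Over all transcripts the medians were 0.01 on DR and -0.00 on AL. Among the fallers the median was -0.44 on DR, with a range of -1.53 to -0.30, and -0.42 on AL, with measured values of -1.80 to -0.30. The AL values of 1 riser and 7 fallers are bounds, because 1 AL group was below background on every array, and the lowest, FBtr0080237, is among them, at least 1.47 log2 lower with RU486. With these 8 at their bounds the AL medians were 0.47 for risers and -0.42 for fallers. The measured medians correspond to 1.40-fold on DR and 1.42-fold on AL for risers, and to 1.35-fold and 1.34-fold lower levels for fallers. A 2-fold difference on both diets was reached by 2 risers and by 0 fallers.

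**Figure D1:**
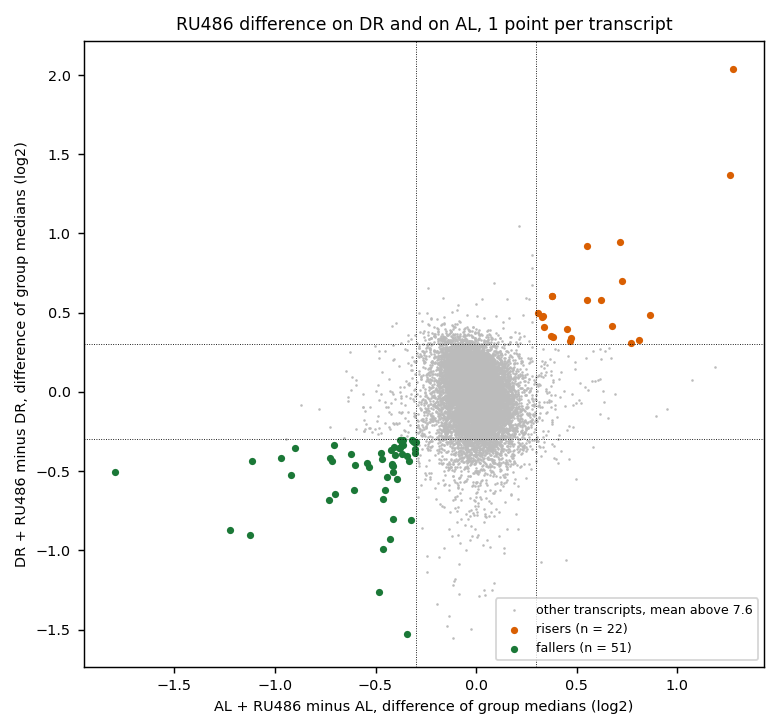
Each point is a transcript with a mean level above 7.6. The horizontal axis is the RU486 difference of group medians on AL and the vertical axis that on DR, both in log2, and dotted lines mark 0.3 in either direction. The 22 risers lie in the upper right and the 51 fallers in the lower left, and FBtr0070490 lies farthest to the upper right at 1.28 on AL and 2.04 on DR.

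The 0.3 limit passes through a continuous range of values. FBtr0084315, with 0.50 on DR and 0.31 on AL, and FBtr0071542, with 0.31 on DR and 0.77 on AL, were the risers nearest to it. FBtr0114121, with 0.28 on DR and 0.66 on AL, and FBtr0082507, with 0.67 on DR and 0.28 on AL, were the nearest transcripts left out. Among fallers the nearest inside were FBtr0077009, with -0.32 on DR and -0.30 on AL, and FBtr0075321, with -0.39 on DR and -0.30 on AL. FBtr0079904, at -0.30 on DR and -0.37 on AL, and FBtr0071403, at -0.30 on DR and -0.95 on AL, both missed the limit in the next decimal. In 2 risers and 8 fallers the smaller of both differences was under 0.32.

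Because the rule used the RU486 differences, the counts that follow describe the chosen transcripts, and nothing is read from them. With limma over all transcripts and Benjamini-Hochberg adjustment, 15 of 22 risers passed 0.05 as higher with RU486 on DR, where 5.95% of all transcripts and 7.01% of those above the level of 7.6 did. On AL 8 of 22 passed, where 0.289% and 0.342% did. Of the fallers, 39 of 51 passed as lower on DR, against 7.78% of all transcripts and 9.3% of those above that level, and 16 of 51 on AL, against 0.337% and 0.401%. The 6 RU486 pools lay wholly above the 6 drug-free pools in 7 risers on DR and in 10 on AL, and in 2.77% and 0.619% of all transcripts. They lay wholly below in 13 fallers on DR and in 23 on AL, and in 2.49% and 0.769% of all transcripts. Single arrays moved the number of transcripts called for RU486 on DR, which was 2284 with all arrays. It was 3915 without pool 1 of AL with RU486, 1345 without pool 3 of DR with RU486 and 1093 without pool 5 of DR. On both diets at once the groups did not overlap in 6 risers, FBtr0070490, FBtr0081372, FBtr0082506, FBtr0070342, FBtr0073037 and FBtr0084315. The same held for 6 fallers, FBtr0087912, FBtr0075748, FBtr0080531, FBtr0076956, FBtr0087664 and FBtr0089041. The share of all transcripts without overlap on both diets at once was not counted.

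FBtr0070490 was the riser with the largest difference. Its level had a minimum, median and maximum of 10.61, 10.96 and 11.19 in DR with RU486, against 8.71, 8.92 and 9.03 in DR, and of 9.57, 9.75 and 9.83 in AL with RU486, against 8.37, 8.47 and 8.49 in AL. The 4 groups lay in 4 separate bands, with both drug groups above both drug-free groups. The medians differed by 4.10-fold on DR and by 2.43-fold on AL. The transcript also varied least between pools of a group among the 73, with a pooled SD of 0.12 log2.

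FBtr0081372 had the next largest difference. Its minimum, median and maximum were 8.16, 9.15 and 9.40 in DR with RU486, against 7.61, 7.78 and 7.95 in DR, and 8.45, 8.81 and 8.93 in AL with RU486, against 7.42, 7.55 and 7.86 in AL. The drug pools lay above the drug-free pools of both diets, and pool 6 of DR with RU486 was the lowest drug pool at 8.16. The medians differed by 2.59-fold on DR and, as measured, by 2.40-fold on AL. In AL it was above background on only 3 of 6 arrays, which leaves the size of the AL difference uncertain, and with the other arrays raised to background the means differed by 2.12-fold.

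FBtr0082506 had 11.52, 11.63 and 11.80 in DR with RU486, against 10.60, 10.69 and 10.78 in DR, and 10.83, 11.35 and 11.51 in AL with RU486, against 10.56, 10.64 and 10.80 in AL. The drug-free pools of both diets were at the same level, and the drug pools were above them, with pool 1 of AL with RU486 only just above. The medians differed by 1.92-fold on DR and 1.64-fold on AL. FBtr0070342 had 10.57, 10.71 and 10.98 in DR with RU486, against 9.66, 9.78 and 9.88 in DR, and 10.33, 10.55 and 10.90 in AL with RU486, against 9.87, 10.00 and 10.17 in AL. Here too the groups were apart on both diets, with differences of 0.92 on DR and 0.55 on AL.

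FBtr0073037 had 8.31, 8.49 and 8.62 in DR with RU486, against 7.72, 8.01 and 8.23 in DR, and 8.40, 8.74 and 9.35 in AL with RU486, against 7.75, 7.87 and 7.92 in AL. It was one of the risers with the larger difference on AL, at 0.87 against 0.49 on DR, and its groups did not overlap on either diet. FBtr0071543 differed by 0.70 on DR and 0.73 on AL, but its pools were widely spread. Its levels were 9.62, 10.05 and 10.41 in DR with RU486, against 9.22, 9.35 and 9.77 in DR, and 9.57, 10.26 and 10.67 in AL with RU486, against 9.33, 9.53 and 10.42 in AL. The groups overlapped on both diets, and the highest AL pool stood among the drug pools.

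FBtr0076608 and FBtr0081256 had much higher levels on DR. FBtr0076608 differed with RU486 by 0.58 on DR and 0.62 on AL. It had 10.06, 10.46 and 10.70 in DR with RU486, against 9.49, 9.88 and 10.43 in DR, and 8.98, 9.22 and 10.08 in AL with RU486, against 8.45, 8.60 and 8.93 in AL. Its pools overlapped on DR and not on AL. FBtr0081256 had 9.19, 9.91 and 10.13 in DR with RU486, against 8.78, 9.33 and 9.70 in DR, and 7.28, 7.85 and 7.93 in AL with RU486, against 7.17, 7.30 and 7.53 in AL. It was above background in 5 of 6 pools of AL with RU486 and in 0 of 6 of AL, so the difference on AL is a bound of at least 1.14-fold between group means, and on DR the medians differed by 0.58.

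FBtr0074769 had the opposite diet order. Its levels were 7.69, 7.92 and 8.21 in DR with RU486, against 7.18, 7.44 and 8.14 in DR, and 9.00, 9.39 and 9.47 in AL with RU486, against 8.89, 9.05 and 9.44 in AL. The drug groups overlapped the drug-free groups on both diets, with differences of 0.48 on DR and 0.33 on AL. In DR it was above background in 4 of 6 pools. FBtr0084315, near the limit of the rule, had 7.92, 8.03 and 8.41 in DR with RU486, against 7.41, 7.53 and 7.86 in DR, and 7.6, 7.75 and 8.49 in AL with RU486, against 7.39, 7.44 and 7.53 in AL. Its drug pools lay above the drug-free pools on both diets, and it was above background in 5 of 6 pools of AL with RU486 and in 1 of 6 of AL.

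**Figure D2:**
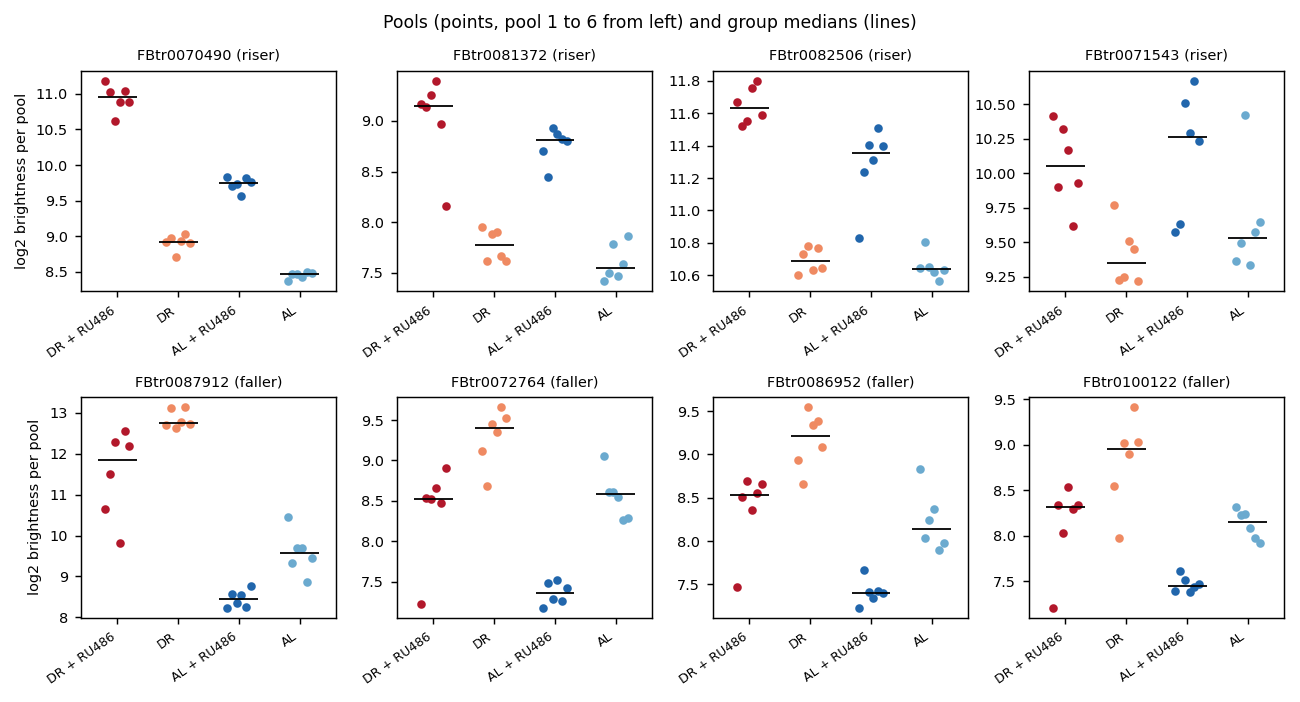
Log2 brightness of 4 risers (upper panels) and 4 fallers (lower panels), 1 point per pool in the order of the pool numbers, with a line at each group's median; each panel has its own vertical axis, which does not start at 0. For FBtr0070490 the 4 groups do not overlap, and for FBtr0072764, FBtr0086952 and FBtr0100122 pool 1 of DR with RU486 is the lowest of its group.

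FBtr0087912 had the largest smaller difference among the fallers. Its levels were 9.81, 11.85 and 12.56 in DR with RU486, against 12.62, 12.75 and 13.14 in DR, and 8.24, 8.44 and 8.76 in AL with RU486, against 8.88, 9.56 and 10.46 in AL. All drug pools lay below all drug-free pools of the same diet. The medians differed by -0.90 on DR and -1.12 on AL, which is 1.87-fold and 2.18-fold lower with RU486. The pools of DR with RU486 were spread with an SD of 1.08 log2, against 0.22 in DR, and pools 4 and 1 were lowest at 9.81 and 10.64.

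FBtr0072764, FBtr0086952 and FBtr0100122 had one pattern. FBtr0072764 had 7.22, 8.53 and 8.91 in DR with RU486, against 8.69, 9.40 and 9.66 in DR, and 7.18, 7.36 and 7.53 in AL with RU486, against 8.27, 8.58 and 9.06 in AL. In AL with RU486 it was below background on every array, so it was at least 1.98-fold lower there, and the groups did not overlap on AL. The bounds on AL were at least 1.56-fold lower for FBtr0086952 and at least 1.46-fold lower for FBtr0100122, which were also below background in all 6 pools of AL with RU486.

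On DR the difference of FBtr0086952 was -0.68, with levels of 7.47, 8.53 and 8.70 in DR with RU486, against 8.65, 9.21 and 9.55 in DR. On AL it had 7.23, 7.41 and 7.66 with RU486, against 7.89, 8.14 and 8.83 without. On DR that of FBtr0100122 was -0.64, with 7.21, 8.32 and 8.54 in DR with RU486, against 7.98, 8.96 and 9.42 in DR. On AL it had 7.38, 7.45 and 7.61 with RU486, against 7.92, 8.15 and 8.31 without. In these 3 transcripts the drug and drug-free pools overlapped on DR, and pool 1 of DR with RU486 was by far the lowest of its group.

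FBtr0088368 differed by -0.62 on DR and -0.61 on AL. It had 8.54, 8.84 and 9.02 in DR with RU486, against 9.13, 9.45 and 9.55 in DR, and 8.44, 8.69 and 9.34 in AL with RU486, against 9.24, 9.29 and 9.34 in AL. The groups did not overlap on DR. On AL they overlapped only because pool 1 of AL with RU486, one of the arrays that stood apart, was at 9.34.

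FBtr0075748 differed by -0.53 on DR and -0.92 on AL, and its groups were apart on both. It had 8.72, 8.90 and 9.03 in DR with RU486, against 9.09, 9.43 and 9.65 in DR, and 8.07, 8.18 and 8.68 in AL with RU486, against 8.97, 9.10 and 9.31 in AL. FBtr0080531 differed by -1.26 on DR and by a measured -0.48 on AL. Its levels were 7.83, 9.00 and 9.69 in DR with RU486, against 9.81, 10.26 and 10.64 in DR, and 7.24, 7.50 and 7.71 in AL with RU486, against 7.91, 7.99 and 8.25 in AL. Again no drug pool reached a drug-free pool of its diet, and only 1 of 6 pools of AL with RU486 was above background, so the sizes on the diets cannot be ranked.

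FBtr0080237 differed more on AL than on DR. It had 8.81, 9.14 and 9.82 in DR with RU486, against 8.87, 9.65 and 10.00 in DR, a difference of -0.51 between overlapping groups. In AL with RU486 it had 7.11, 7.27 and 7.47, all below background, against 8.73, 9.06 and 9.27 in AL. The bound on AL was at least 2.78-fold lower with the drug, and all 6 drug pools were below all drug-free pools. FBtr0072726, chosen after its values were seen, differed more on DR, with -1.53 on DR and -0.35 on AL. It had 8.05, 9.49 and 10.49 in DR with RU486, against 9.74, 11.01 and 11.25 in DR, and the AL groups, at 8.36, 8.40 and 9.59 with RU486 and 8.47, 8.75 and 8.94 without, overlapped, with pool 1 of AL with RU486 highest of both.

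Several members were near background in 1 group, which limits their fold changes. In AL with RU486, 7 fallers were below background in all 6 pools. They were FBtr0072764, FBtr0086952, FBtr0100122 and FBtr0080237, described above, and FBtr0086268, FBtr0089041 and FBtr0072592. The bounds of these last were at least 1.62-fold, 1.21-fold and 1.09-fold lower with RU486 on AL. A further 5 fallers were above background in 1 to 5 of these pools. All 51 fallers were above background in all 12 drug-free pools, and 39 of 51 on all 24 arrays. Of the risers, 16 of 22 were above background on all 24 arrays. FBtr0081256 was below it throughout AL, and 3 risers were above it in 1 to 5 of 6 AL pools.

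Most drug pools, taken singly, lay in the direction of their group. The rule chose the members by the medians of these same pools, which makes such agreement likely in advance. The counts are therefore descriptions, and nothing is read from them. Against the median of the drug-free pools of the same diet, each pool of DR with RU486 was higher for 19 to 22 of the 22 risers and lower for 47 to 51 of the 51 fallers. The pools of AL with RU486 other than pool 1 were higher for 21 to 22 risers and lower for 47 to 50 fallers. Pool 1 of AL with RU486 was higher for 16 risers and lower for 38 fallers. Its departures went both ways. It was the highest drug pool on AL for FBtr0076608 at 10.08, and the lowest for FBtr0082506 at 10.83 and for FBtr0081256 at 7.28.

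**Figure D3:**
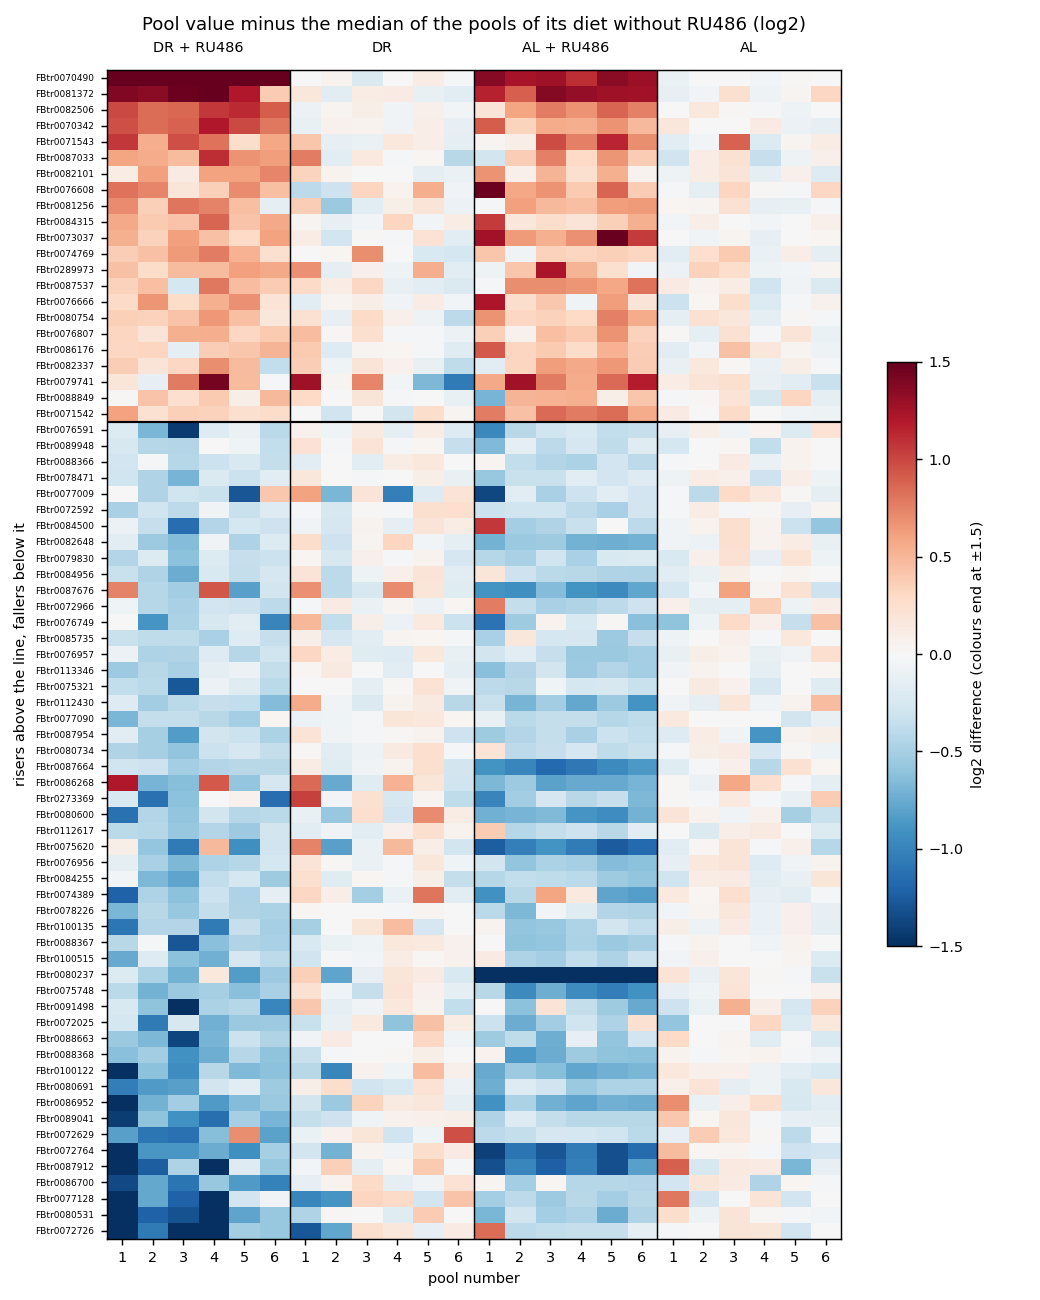
Each line is 1 of the 73 transcripts and each column 1 pool; colour gives the pool's level minus the median of the drug-free pools of its diet, in log2, with colours ending at 1.5 in either direction. Risers stand above the black line and fallers below it, ordered by the difference on DR, and pool 1 of AL with RU486 has more cells against the colour of its group than the other drug pools, with 16 of 22 risers and 38 of 51 fallers in the group's direction.

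Without pool 1 of AL with RU486 the same rule kept 19 of the 22 risers and 42 of the 51 fallers. Without pool 3 of DR with RU486 it kept 20 risers and 42 fallers, and without both arrays 17 risers and 35 fallers. In every one of these settings all 73 had differences of unchanged sign on both diets, so the members lost were those that passed below 0.3 in size or 7.6 in level.

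The 8 probes of a transcript give repeated readings within the same pools. All 8 differed in the direction of the transcript on both diets for 15 of 22 risers and 28 of 51 fallers, and at least 6 of 8 did so for 21 risers and 47 fallers. Of all probes, 94.3% of those of risers and 91.4% of those of fallers went the transcript's way on both diets. For the 5938 transcripts above the level of 7.6 whose differences shared a sign at any size, 42.6% of probes did. The probes were part of the averages that the rule used, so these shares describe how even the readings were.

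FBtr0070490 differed by 0.85 to 2.76 over its probes on DR and by 0.32 to 1.84 on AL, and its first probe was lowest on both. FBtr0081372 differed by 0.80 to 1.89 on DR and by 0.59 to 1.62 on AL, with the first 2 probes lowest on AL. In FBtr0080237 the difference rested on 5 of the 8 probes, which ranged from -2.91 to -2.44 on AL and from -1.06 to -0.63 on DR. Its other 3 probes were dim, with mean levels of 6.89, 7.16 and 7.68. They differed by 0.06, 0.03 and 0.01 on DR and by 0.04, -0.39 and -0.23 on AL.

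In FBtr0072764 the first 4 probes differed by -1.04, -2.04, -2.50 and -2.35 on AL. The last 4, with mean levels of 7.46 to 7.81, differed by -0.52, -0.60, -0.22 and -0.38. On DR the first 4 differed by -0.96, -1.23, -0.94 and -0.71 and the last 4 by -0.52, -0.84, -0.64 and -0.48, a smaller contrast in the same direction. FBtr0087676 had 5 of 8 probes lower with RU486 on both diets, with a range of -1.05 to 0.09 on DR and of -1.58 to -0.17 on AL. The fewest, 4 of 8, belonged to FBtr0084500. Both were chosen after their probe values were seen.

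**Figure D4:**
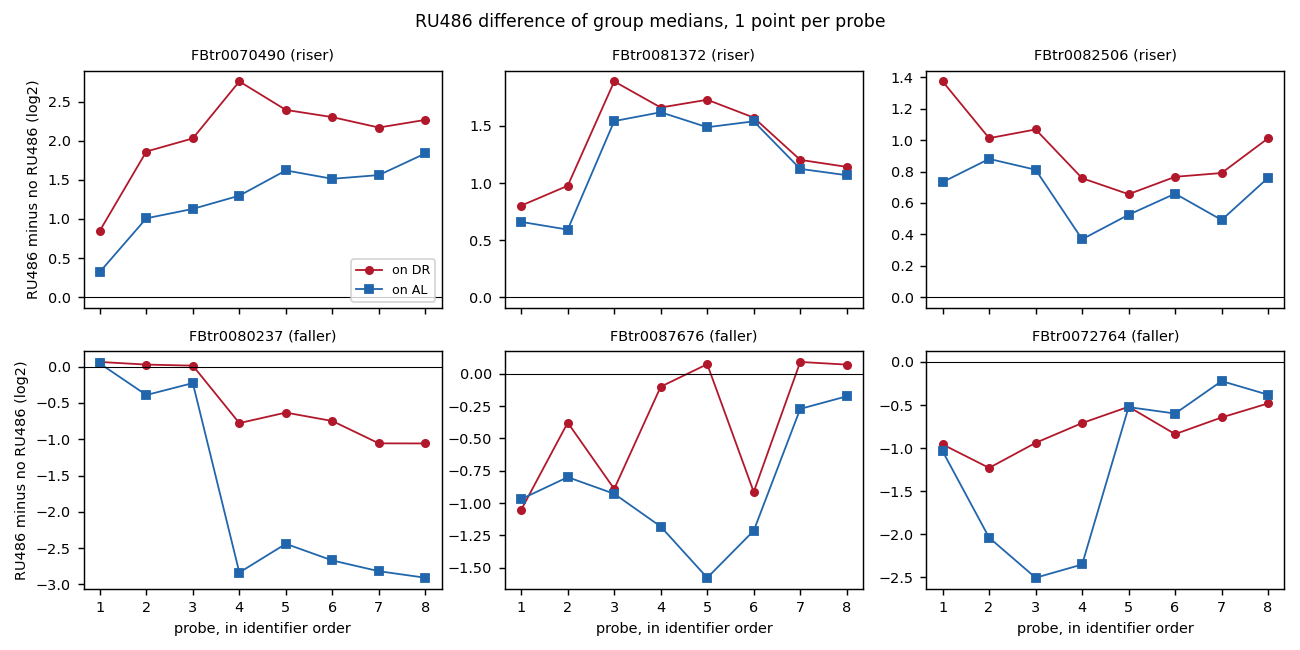
RU486 difference of group medians in log2 for each of the 8 probes of 3 risers and 3 fallers, on DR (circles) and AL (squares), in the order of the probe numbers; the horizontal line marks 0. All probes of the 3 risers lie above 0 on both diets, whereas the first 3 probes of FBtr0080237 lie between -0.39 and 0.04 on AL and the other 5 between -2.91 and -2.44.

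The RU486 limits of the rule did not use the diet difference averaged over drug and drug-free pools. In a design with equal group sizes and equal spread this diet difference is independent of both RU486 differences. The spread here was not equal in all groups. The floor of 7.6 on the mean level, however, took in both diets. FBtr0081256 and FBtr0072592 averaged 7.54 and 7.53 over the AL arrays and 9.56 and 7.85 over the DR arrays. They passed the floor only through DR, so their diet values are descriptions, though both are counted as higher below. Averaged over drug and drug-free pools, 10 of 22 risers were higher on DR than on AL, 6 were lower and 6 did not pass the test (limma, Benjamini-Hochberg adjusted p under 0.05). Of the 51 fallers, 40 were higher on DR, 6 were lower and 5 did not pass. Over all transcripts 31.1% were higher and 39.9% lower, and of those above the level of 7.6, 36.1% were higher and 39.8% lower. The share of members higher on DR was thus 45.5% of risers and 78.4% of fallers. The median diet difference was 0.18 log2 for risers and 0.46 for fallers, against -0.06 for all transcripts. Both medians were the same with the 8 members that were below background throughout a group taken at their bounds. All 62 of these calls passed also without both arrays that stood apart. The split depended on how the arrays were scaled. With each array centred on its median, the median diet difference of all transcripts was -0.17 in place of -0.06, and 4161 transcripts were higher and 9269 lower, against 5178 and 6635 with the values as deposited. The risers then divided into 9 higher and 8 lower and the fallers into 35 higher and 6 lower. After quantile normalization 8 risers were higher and 7 lower, and 33 fallers were higher and 8 lower. Over all transcripts 4390 were then higher and 6144 lower.

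FBtr0087912 had the largest diet difference among the 73. It averaged 12.17 over the DR pools with and without the drug and 9.02 over the AL pools with and without the drug. That is 3.15 ± 0.23 log2 (SE, 12 pools each, limma adjusted p = 5.26e-12) or 8.90-fold higher on DR. The difference was 3.05 among the drug pools and 3.26 among the drug-free pools. Dietary restriction and RU486 thus went with opposite differences in this transcript, up with the diet and down with the drug. FBtr0080531 followed the same order, at 1.80 ± 0.15 (limma adjusted p = 5.42e-11).

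Among the risers FBtr0081256 was higher on DR by 2.03 ± 0.10 (SE; limma adjusted p = 9.1e-15), and by at least 3.64-fold when AL arrays below background are taken at background. Because it passed the floor of the rule only through its DR level, these values are a description. FBtr0086176 was higher by 1.78 ± 0.09 and FBtr0087537 by 1.62 ± 0.10, both chosen after their values were seen. FBtr0076608 was higher by 1.16 ± 0.12 and FBtr0070490 by 0.83 ± 0.05. For these transcripts the differences with the diet and with the drug had the same sign.

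Lower on DR were the riser FBtr0074769, at -1.52 ± 0.09 (limma adjusted p = 2.08e-13), and the faller FBtr0273369, at -1.56 ± 0.15 (limma adjusted p = 1.02e-09). FBtr0273369 had 9.38, 10.10 and 10.59 in DR with RU486, against 10.14, 10.52 and 11.55 in DR, and 11.12, 11.65 and 11.86 in AL with RU486, against 12.01, 12.11 and 12.49 in AL. Its drug groups were lower on both diets, with overlap on DR. FBtr0077009 was lower on DR, at -0.78 ± 0.18 (limma adjusted p = 0.000442). The other fallers lower on DR were FBtr0087664, FBtr0086700, FBtr0072966 and FBtr0100135, at -0.72, -0.54, -0.33 and -0.27.

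The 6 risers that did not pass included 4 of those with non-overlapping drug groups on both diets. FBtr0081372 had a diet difference of 0.21 ± 0.10 (limma adjusted p = 0.0621), FBtr0084315 of 0.17 (adjusted p = 0.0641), FBtr0073037 of -0.10 (adjusted p = 0.282) and FBtr0070342 of -0.05 (adjusted p = 0.487). FBtr0071543 had -0.16 (limma adjusted p = 0.264) and FBtr0076666 had -0.03 (limma adjusted p = 0.784). When each array was centred on its median, FBtr0070342 and FBtr0073037 passed as lower on DR, at -0.15 and -0.21 (limma adjusted p = 0.0153 and 0.0308). Among the fallers FBtr0088368 had 0.09 ± 0.08 (limma adjusted p = 0.259), and its sign turned with the scaling of the arrays.

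**Figure D5:**
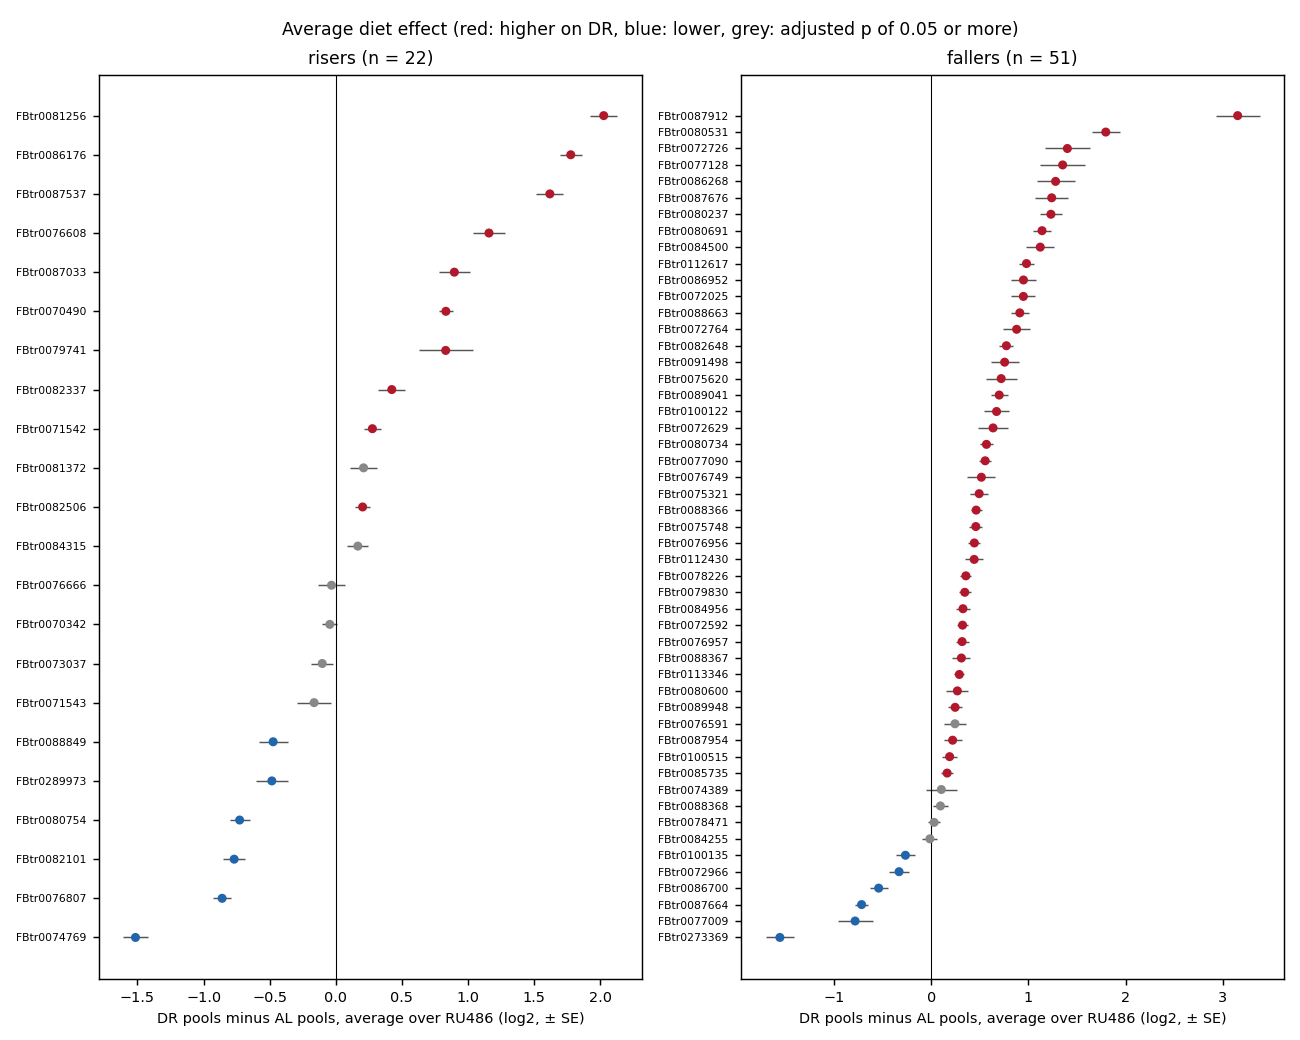
Average diet difference, DR minus AL, in log2 with its limma SE, for the 22 risers (left) and the 51 fallers (right), in order of size; red marks transcripts higher on DR, blue those lower and grey those with an adjusted p of 0.05 or more. Risers divide into 10 higher, 6 lower and 6 that did not pass, and fallers into 40, 6 and 5.

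All 12 DR pools lay above all 12 AL pools in 3 of 22 risers (13.6%) and 1 of 51 fallers (1.96%), against 11.1% of all transcripts. They lay below in 2 of 22 risers (9.09%) and 0 of 51 fallers, against 6.42%. The RU486 difference that the rule required widens the range within each diet, so nothing is read from these shares.

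The order of the 4 group medians joins both differences. For 24 of the 51 fallers it was, from high to low, DR, DR with RU486, AL and AL with RU486. For 20 others it was DR, AL, DR with RU486 and AL with RU486, with both drug groups below both drug-free groups. In 4 fallers the order was AL, DR, AL with RU486 and DR with RU486, and in 3 it was AL, AL with RU486, DR and DR with RU486. The risers had no such common order. DR with RU486, DR, AL with RU486 and AL was the order of 7, and AL with RU486, AL, DR with RU486 and DR that of 6. In 9 risers, FBtr0081372 and FBtr0082506 among them, both drug groups were above both drug-free groups. The rule fixed the order of drug and drug-free groups within each diet, and these counts were not tested.

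Some members have adjoining identifier numbers. They are FBtr0071542 and FBtr0071543 among the risers, and FBtr0076956 and FBtr0076957 as well as FBtr0088366, FBtr0088367 and FBtr0088368 among the fallers. Whether these are transcripts of the same gene is not annotated in the sources used here. Over the 24 deviations from group means, Pearson's r was 0.51 for the risers, 0.66 for the pair of fallers and 0.73 to 0.76 for the 3 fallers. The points share arrays, and these values are descriptions. In pool 1 of AL with RU486 the 3 fallers were at 9.52, 9.17 and 9.34, at the level of the AL pools, which was seen after the values were known.

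Within groups, closely correlated pairs were about as frequent among the members as among other transcripts. Of 2628 pairs of members 21, or 0.799%, had an r of at least 0.8 over the 24 deviations, against 0.857% of all pairs of transcripts above the level of 7.6. Joined by shared members, these pairs gave 7 sets of 23 members in all, and only some are described. The largest set held 6 fallers with r as low as 0.01 between some of them, and another joined a faller and a riser. The fallers FBtr0080237, FBtr0075620, FBtr0086268, FBtr0087676 and FBtr0082648 formed a set. Their r was 0.78 to 0.92, or 0.34 to 0.85 over only the AL arrays with and without the drug. They were on average 0.58 and 0.73 above the group mean in pools 1 and 4 of DR with RU486, and 0.55 and 0.42 above it in pools 1 and 4 of DR. In pool 2 of DR they were at -0.64.

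FBtr0072764, FBtr0086952, FBtr0100122 and FBtr0080600 formed another set, with r of 0.71 to 0.89. They were at -0.89 in pool 1 of DR with RU486 and at -0.63 in pool 2 of DR. FBtr0087912 and FBtr0080531 varied together with an r of 0.85, or 0.59 without the pools of DR with RU486, and were at -0.73 and -1.37 in pools 1 and 4 of that group. In those same pools the set with FBtr0080237 was high. Over the 24 deviations from group means FBtr0087912 and FBtr0087676 had an r of -0.70, although both were higher on DR. These sets were chosen after the correlations were seen, and what the pools shared was not tested.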

How the data were processed

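Probe brightness from 24 NimbleGen arrays of 1 colour (Cy3) was deposited on a log2 scale. Per the submitters' processing notes the authors used limma. The background correction, normalization and log base are not given in the sources used here, and base 2 was taken from the range of the values. They were used as deposited. The 132999 probes of transcripts were averaged per transcript by the first 11 characters of the probe identifier. Random probes were averaged in 511 sets of 8, and the 95th percentile of these sets was taken as each array's background. A member below background on every array of a group has only a bound there, computed by raising its values to background wherever they were lower.

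Groups came from the sample titles, and each pool was 1 replicate. Whether the pools of a group came from separate cultures is not stated, so p-values measure the spread between these pools. Their number limits the precision. No batch was fitted, since the slides are not given in the sources used here. The model had a mean for each of the 4 groups and a shared spread (lmFit and eBayes of limma 3.58.1, R 4.3.3), and p-values were adjusted by Benjamini-Hochberg over all 16637 transcripts at 0.05. The procedure was also run on simulated data with independent noise and an equal spread in all groups. That simulation held no arrays that stood apart, so it does not cover those seen here.

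The members, lists and tests were chosen with earlier results of these data known. Named are the 8 risers and 8 fallers with the largest smaller difference, the 2 members at either end of the average diet difference, and those nearest the limit of the rule. Other identifiers were chosen after their values were seen. The planned lists of tissue markers, fatty acid synthesis and breakdown, drug metabolism and RNAi machinery matched 0 members in the RefSeq gene table (Release 6). ACC was not analysed here, so the knockdown was not checked. Alternatives were the median over probes, array centring, quantile normalization, array weights, pool number as a block, other limits of the rule, and arrays left out. Tables and figures were made with Python 3.11.15, pandas 2.3.3 and matplotlib 3.10.9.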

Additional observations from a re-analysis of the deposited data

Results flagged for a closer look

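Among the 22 named transcripts, with 4 groups each, 13 groups of 6 pools held a pool set apart from its group. Its gap to its nearest neighbour was large for the range of the group (Dixon's test). Chance gives about 1 such group in 20. Over all 73 members there were 35 in 292 groups, and 16 of the 35 were pool 1 of AL with RU486, while pools 1 and 3 of DR with RU486 gave 4 each. The share over all transcripts was not counted, so no excess particular to the members is read from this.

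In pool 1 of DR with RU486, FBtr0072764 was low at 7.22 and FBtr0086952 was low at 7.47, and FBtr0071542 was high at 9.92. In pool 3 of DR with RU486 FBtr0075321 was low at 8.61. In pool 6 of DR with RU486 FBtr0081372 was low at 8.16. FBtr0088368 was low in pool 1 of DR, at 9.13, and high in pool 1 of AL with RU486, at 9.34. FBtr0074769 was high in pool 3 of DR, at 8.14, and low in pool 2 of AL with RU486, at 9.00. In pool 1 of AL with RU486 FBtr0077009 was low at 9.62 and FBtr0081256 was low at 7.28. In the AL pools FBtr0082506 was high in pool 2, at 10.80, and FBtr0071543 was high in pool 3, at 10.42.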

How the results depend on the processing

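The number of members followed the limit of the rule, with 36 risers and 85 fallers at 0.25 and 9 risers and 26 fallers at 0.4. All 73 kept the sign of both RU486 differences with the median over probes, group means, centring, quantile normalization and with arrays left out. The members were chosen by these differences, so nothing is read from the kept signs. Membership moved more. The rule kept 17 of 22 risers and 34 of 51 fallers with group means, and 18 and 39 with the median over probes. It kept 21 and 44 with centring, and 21 and 42 with quantile normalization. Between group means FBtr0084500 differed by only -0.01 on AL and FBtr0086268 by -0.06 on DR. Leaving out 1 array in turn gave 18 to 29 risers and 42 to 59 fallers, 73 to 122 transcripts called for RU486 on AL, 1093 to 3915 for RU486 on DR and 11498 to 12406 for the average diet difference. Among members the same gave 10 to 11 risers higher and 6 to 6 lower, and 38 to 41 fallers higher and 6 to 6 lower on DR. RU486 on AL, with 104 calls, had 159 without pool 1 of AL with RU486 and pool 3 of DR with RU486, and 342 with array weights, and the cause was not tested. The diet difference of FBtr0088368 was -0.009171 after centring (limma adjusted p = 0.911) and -0.17 after quantile normalization (limma adjusted p = 0.0396), and it passed as higher at 0.15 without pool 1 of AL with RU486 (limma adjusted p = 0.0119). Of the other named members, FBtr0082506 no longer passed after centring and FBtr0071542 after quantile normalization. Of 36 pairs of same-numbered arrays, 6 had deviations correlated above 0.1, and the main model did not pair groups by pool number. Between DR with RU486 and AL with RU486, r was 0.14, 0.18, -0.07, 0.11, 0.08 and 0.25 in the order of the pool numbers. Whether the pools of these groups were paired is therefore not settled. Pool number as a replicate block gave 2047 calls for RU486 on DR, 88 on AL and 11651 for diet, and 61 of 62 member calls were kept. Members near background, unnamed identifiers and an unstated normalization limit these results.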
